A study of Mus musculus with 20 samples.

Results

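The 10 genes of phospholipid synthesis examined in these livers encode enzymes that make or remodel phosphatidylcholine (PC) and phosphatidylethanolamine (PE): Chka, Chkb, Pcyt1a, Chpt1, Cept1, Etnk1, Etnk2, Pcyt2, Pemt and Lpcat3. They were chosen by name from the 38924 genes of the liver expression table, with earlier results of these data known. No rule on their values was used, and 10 of 10 were among the 14524 genes with enough signal to be tested. RNA was sequenced from livers of 20 male mice in 4 groups of 5, all fed for 12 weeks. NDWT mice were C57BL/6J wild type (WT) on control chow, and HFWT mice were WT on CDAHFD, a high fat chow of defined amino acids. CDAHFD lacks choline and holds a limited amount of methionine. NDKO and HFKO mice were TSP-1 (Thbs1) knockout mice from The Jackson Laboratory, on control chow and on CDAHFD. The mice were bought at 5 weeks of age and acclimated for 1 week before the diets began. The knockout is present in every cell and was bought as a separate line, the methods name no littermate controls, and each library is taken to be 1 mouse, so p-values measure the spread between mice within a group.

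PC is the main phospholipid of cell membranes and of the surface of very low density lipoprotein (VLDL), the particle in which liver exports triglyceride. In the Kennedy pathway choline is phosphorylated by a choline kinase, activated to CDP-choline with CTP and joined to diacylglycerol by a transferase. PE is made from ethanolamine by a parallel series of enzymes. Hepatocytes have another route to PC, in which PEMT adds methyl groups from S-adenosylmethionine to PE. CDAHFD withholds the choline that feeds the first route, and it also limits methionine and is high in fat. The comparison of diets asks how RNA for each step differed on this diet as a whole, whose parts cannot be told apart. The comparison of genotypes asks the same of the loss of TSP-1.

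Libraries held 15641545 to 23276321 fragments assigned to genes, and the 10 genes received 677 to 13998 fragments each in a library. Thbs1 went against the genotype labels on the control diet, at 0.058 to 0.326 FPKM (fragments per kilobase of transcript, scaled to library size) in NDWT and 0.986 to 1.90 FPKM in NDKO, and the groups overlapped on CDAHFD, at 3.46 to 6.10 FPKM in HFWT and 3.05 to 4.40 FPKM in HFKO. The mitochondrial tRNA genes mt-Tg and mt-Tr separated the lines as labelled, with 0 fragments in all 10 libraries labelled TSP-1 null and at least 1 fragment in all 10 WT libraries. Genotype below therefore means the label. The HFWT 5 library gave 1.08% of its fragments to the RNA gene Gm23935, against 0.0274% to 0.229% in the others. Among the 10 genes, the calls that depended on this library are named where they arise. Calls of other genes and of markers were not checked without it. Hepatocyte markers defined the tissue in every library, with a summed level of 30488 to 53768 FPKM over 10 markers.

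Differences were tested with limma on log2(FPKM + 0.1) across all 14524 genes. A gene was called, and is said to have risen or fallen, where the Benjamini-Hochberg false discovery rate (FDR) was under 0.05 and the absolute log2 fold change (log2FC) above 0.58. FPKM are shares of a library, and the median log2FC of all tested genes was 0.53 in HFWT against NDWT and 0.50 in HFKO against NDKO, so a gene that held its share was already below most genes. Rescaling the libraries by median of ratios shifted these medians by -0.54 and -0.51, while the genotype medians of -0.066 on control diet and -0.097 on CDAHFD shifted by less than 0.1. Values relative to the all-gene median are given beside the diet comparisons for this reason.

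Levels per length placed the enzymes in a similar order in the 4 groups. Pcyt2 and Pemt were the most abundant, with means of 115 ± 15.8 and 109 ± 9.86 FPKM (SD, n = 5) in NDWT, and their ranges overlapped in every group. Etnk2 followed at 46.2 ± 6.45 FPKM, next to Lpcat3 at 40.8 ± 4.36 FPKM, with overlapping ranges in NDWT and separate ranges in the other 3 groups. Chpt1 came next in NDWT at 26.7 ± 2.61 FPKM, apart from its neighbours on both sides. Pcyt1a (18.7 ± 1.82 FPKM), Cept1 (17.8 ± 0.629 FPKM), Etnk1 (15.2 ± 2.06 FPKM) and Chkb (13.5 ± 1.92 FPKM) overlapped with their neighbours in this order. Chka was lowest in each group, at 5.13 ± 0.925 FPKM in NDWT. On CDAHFD, Chpt1 moved to seventh place in HFWT, at 14.5 ± 2.94 FPKM, and to eighth in HFKO, at 12.6 ± 0.903 FPKM.

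**Figure D1:**
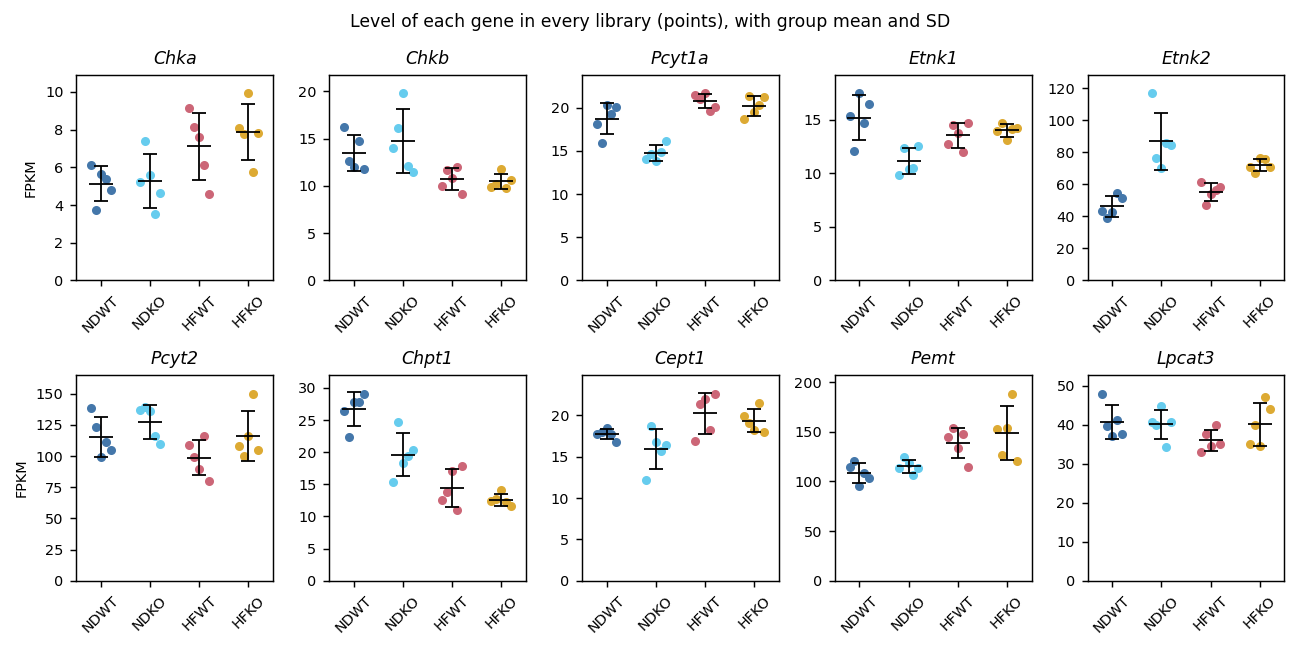
Each panel shows the FPKM of 1 gene (y axis, from 0) in the 5 libraries of each group (points), with the group mean and SD in black. Chpt1 sat at 22.4 to 29.1 FPKM in NDWT and 11.0 to 17.9 FPKM in HFWT, and Etnk2 at 39.1 to 54.5 FPKM in NDWT and 70.3 to 117 FPKM in NDKO, with no overlap in either case.

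Chpt1, the cholinephosphotransferase that joins CDP-choline to diacylglycerol in the last step of PC synthesis, was the only one of the 10 genes called in both diet comparisons. It read 26.4, 22.4, 27.8, 27.8 and 29.1 FPKM in the NDWT mice and 12.5, 13.8, 17.0, 11.0 and 17.9 FPKM in the HFWT mice. In the TSP-1 null mice it read 15.4, 24.7, 18.4, 19.4 and 20.3 FPKM on control diet and 12.4, 12.7, 14.1, 12.2 and 11.6 FPKM on CDAHFD. Every CDAHFD library lay below every control library of the same genotype. Chpt1 fell to 0.537 of the control level in WT mice (log2FC -0.90, SE 0.13, FDR 3.41e-06) and to 0.650 in TSP-1 null mice (log2FC -0.62, 95% interval -0.89 to -0.36, FDR 0.000228). Relative to the all-gene median these were -1.43 and -1.12. The call in TSP-1 null mice was lost without NDKO 2, the highest control library at 24.7 FPKM, since the log2FC then came to -0.54 against the threshold of 0.58. The diet effects of both genotypes were not shown to differ (interaction log2FC 0.28, FDR 0.507).

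On control diet Chpt1 was 0.731 of the WT level in NDKO (log2FC -0.45, FDR 0.0238), which passed the FDR but not the fold threshold, and the NDKO 2 library overlapped with NDWT. On CDAHFD the genotypes overlapped, with a log2FC of -0.18 (95% interval -0.44 to 0.09, FDR 0.489).

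The RefSeq window of 250 bases before the start of Chpt1 is shown because this gene carried the largest difference by diet among the 10. It lies at chr10:88503971-88504220 on the minus strand of GRCm38, and the table places the gene at chr10:88452745-88504073, so its start lies inside the window. Capitals mark matches on either strand to 6 motifs that were searched in all windows, namely the TATA box TATAAA, the CCAAT box, the GC box GGGCGG, the E-box CACGTG, the nuclear receptor motif AGGTCA and the sterol element TCACNCCAC.
Chpt1: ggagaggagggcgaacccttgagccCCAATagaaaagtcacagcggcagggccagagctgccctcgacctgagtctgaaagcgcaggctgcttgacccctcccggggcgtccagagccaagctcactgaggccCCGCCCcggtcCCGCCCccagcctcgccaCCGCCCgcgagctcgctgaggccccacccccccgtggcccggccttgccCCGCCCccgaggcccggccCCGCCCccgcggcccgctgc
The window is 75.6% GC, against a median of 52.4% over 32851 windows of mouse genes, and holds 5 matches to the GC box GGGCGG on the other strand and 1 CCAAT. Of the 9 genes of the pathway with a window in the table, 8 held GGGCGG in at least 1 window (32.7% of all windows) and 5 held CCAAT (33.8% of all windows). Some of the 9 had more than 1 window, so a count per gene is not on the scale of a share per window. Most of their windows were also richer in GC than the median, and no enrichment is read from these counts. No window of these genes held the E-box CACGTG or the motif AGGTCA, found in 6.02% and 14.0% of all windows, and TATAAA (12.4% of all windows) was found in Chkb alone. These are matches of letters in 1 window and describe no binding.

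Cept1 encodes the choline/ethanolamine phosphotransferase, which can use both CDP-choline and CDP-ethanolamine for the same last step. It ranged from 16.8 to 18.5 FPKM in NDWT, 12.2 to 18.7 FPKM in NDKO, 16.9 to 22.6 FPKM in HFWT and 18.0 to 21.4 FPKM in HFKO, and was called in no comparison. Its log2FC by diet was 0.18 (FDR 0.107) in WT mice and 0.29 (FDR 0.0120) in TSP-1 null mice, and both signs turned with median of ratios scaling, to -0.38 and -0.24. A ratio of genes within a library does not depend on scaling, so the balance between both enzymes was compared that way. The Cept1 to Chpt1 ratio had a median of 0.668 (0.577 to 0.804) in NDWT and 1.34 (1.27 to 1.67) in HFWT, and of 0.807 (0.757 to 0.913) in NDKO and 1.55 (1.30 to 1.75) in HFKO. Chpt1 was the more abundant transcript in each control library and Cept1 in each CDAHFD library. The ratio was 2.11-fold higher on CDAHFD in WT mice and 1.88-fold higher in TSP-1 null mice (two-sided exact permutation p = 0.00794 in each, the smallest that 5 against 5 can give, 0.0265 after adjustment over 20 ratio tests). Together the transcripts summed to 44.5 ± 2.45 FPKM in NDWT, 35.6 ± 5.62 in NDKO, 34.7 ± 5.25 in HFWT and 31.9 ± 1.51 for HFKO, of which Chpt1 gave 59.9%, 55.1%, 41.4% and 39.5%. On control diet the ratio was also 1.22-fold higher in NDKO than in NDWT (exact permutation p = 0.0238, adjusted 0.0433), with overlap.

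**Figure D2:**
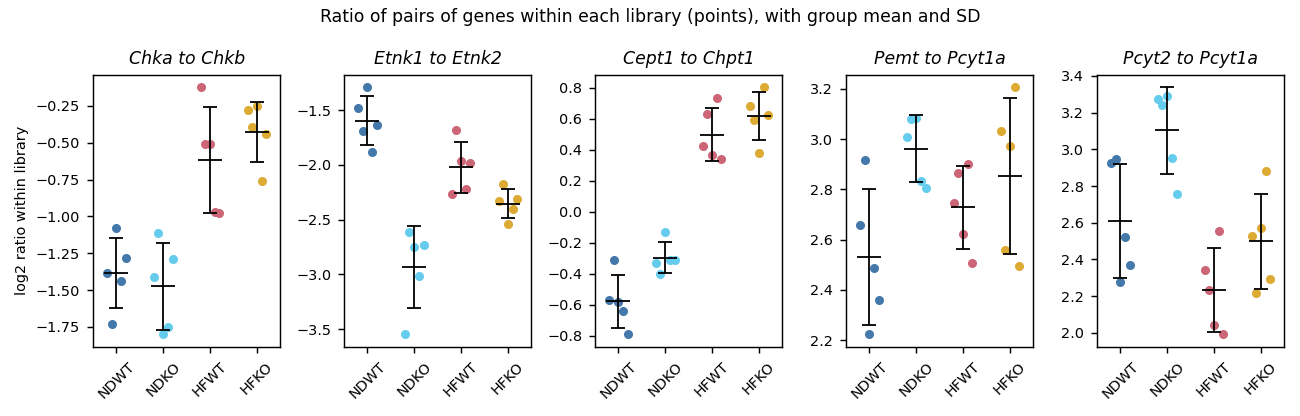
Each panel shows the log2 ratio of the FPKM + 0.1 of 1 pair of genes within each library (points, y axis), with group mean and SD. The Cept1 to Chpt1 ratio lay below 0 in all control libraries and above 0 in all CDAHFD libraries, and the Etnk1 to Etnk2 ratio was lowest in NDKO.

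Choline kinase makes phosphocholine and has isoforms from Chka and Chkb. Chka read 6.13, 3.73, 5.64, 5.38 and 4.78 FPKM in NDWT and 9.13, 8.15, 7.59, 6.11 and 4.61 FPKM in HFWT. It read 5.20, 7.41, 5.61, 3.52 and 4.63 FPKM in NDKO and 8.11, 7.78, 9.93, 5.74 and 7.80 FPKM in HFKO. The diets overlapped in both genotypes. Chka rose 1.5-fold in TSP-1 null mice (log2FC 0.59, SE 0.20, FDR 0.0120), close to the fold threshold, and in WT the log2FC was 0.45 (FDR 0.0494), under it. Without HFWT 5, the lowest CDAHFD library, Chka was also called in WT, with a log2FC of 0.59, and without NDKO 4, NDKO 5, HFKO 1 or HFKO 3 it was not called in TSP-1 null mice. Its log2FC relative to the all-gene median was -0.087 and 0.090, and with median of ratios scaling the sign in WT turned to -0.11 and Chka was called in neither genotype.

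Chkb ranged from 11.8 to 16.2 FPKM in NDWT, 9.15 to 12.0 in HFWT, 11.4 to 19.8 in NDKO and 9.79 to 11.8 in HFKO. Its log2FC by diet was -0.32 (FDR 0.0295) in WT mice and -0.46 (FDR 0.00327) in TSP-1 null mice, under the fold threshold, and -0.85 and -0.96 relative to all genes. With median of ratios scaling it was called lower in both genotypes, at -0.88 and -0.99. The row of Chkb in the table, chr15:89416405-89429908 with 5805 bases of transcript, also spans the neighbouring gene Cpt1b on the same strand. The level of Chkb per length is therefore uncertain, and reads of Cpt1b may be counted with it. The same limit holds for the diet values of Chkb and for the ratio, sum and share that follow. The Chka to Chkb ratio did not overlap between diets, with a median of 0.379 in NDWT, 0.699 in HFWT, 0.371 in NDKO and 0.760 in HFKO. It was 1.70-fold higher on CDAHFD in WT mice and 2.07-fold higher in TSP-1 null mice (exact permutation p = 0.00794, adjusted 0.0265 in each). Choline kinase transcripts together came to 18.6 ± 2.57 FPKM in NDWT, 20.0 ± 4.40 in NDKO, 17.8 ± 2.37 in HFWT and 18.3 ± 2.23 for HFKO, while the share from Chka was 27.6%, 26.4%, 39.5% and 42.6%. The 4 sums lay within 1 SD of one another.

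Pcyt1a encodes CCTα, the enzyme that activates phosphocholine to CDP-choline and sets the rate of that route. It ranged from 15.9 to 20.4 FPKM in NDWT and from 19.7 to 21.7 FPKM in HFWT, and from 13.8 to 16.2 FPKM in NDKO and from 18.7 to 21.4 FPKM in HFKO. NDKO thus stood lowest, and every HFKO library lay above every NDKO library. The log2FC by diet was 0.46 in TSP-1 null mice (SE 0.067, FDR 5.86e-06) and 0.15 in WT mice (FDR 0.0478), and on control diet NDKO was 0.788 of NDWT (log2FC -0.34, FDR 0.00273), none of them past the fold threshold. The diet effects differed by 0.30 (95% interval 0.11 to 0.50), which did not pass the FDR (0.129). Relative to all genes the diet values were -0.38 in WT mice and -0.041 in TSP-1 null mice, and with median of ratios scaling both were negative, at -0.41 and -0.076.

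Pcyt1a was the only one of the 9 genes with a window to match TCACNCCAC, a sequence like the sterol regulatory element, which 1.05% of all windows hold. The window is shown for that match, which begins 116 bases before the start, and covers chr16:32430671-32430920 on the plus strand of GRCm38, with its capitals marking the same 6 motifs.
Pcyt1a: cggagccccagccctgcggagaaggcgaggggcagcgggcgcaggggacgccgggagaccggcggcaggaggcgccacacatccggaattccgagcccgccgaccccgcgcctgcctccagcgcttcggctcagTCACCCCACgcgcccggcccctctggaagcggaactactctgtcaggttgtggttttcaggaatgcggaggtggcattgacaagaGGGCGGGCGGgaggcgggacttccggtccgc
Besides that match it holds 2 overlapping GGGCGG near the start.

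Etnk2, an ethanolamine kinase that makes phosphoethanolamine and is abundant in liver, was the only one of the 10 genes called between genotypes. It read 43.1, 39.1, 42.8, 54.5 and 51.4 FPKM in NDWT and 117, 76.5, 70.3, 85.7 and 84.3 FPKM in NDKO. On CDAHFD it read 61.4, 46.9, 54.0, 56.2 and 58.4 FPKM in HFWT and 70.8, 67.0, 76.5, 75.5 and 71.0 FPKM in HFKO. TSP-1 null libraries lay above WT libraries on both diets, without overlap. Etnk2 rose 1.86-fold in NDKO against NDWT (log2FC 0.90, SE 0.11, FDR 8.05e-05), and was called under each of the 31 settings tried. On CDAHFD it was 1.31-fold higher (log2FC 0.39, 95% interval 0.15 to 0.63), which did not pass the FDR (0.101). The interaction log2FC was -0.51 (95% interval -0.85 to -0.17), which did not pass the FDR either (0.136). By diet the log2FC of Etnk2 was 0.27 in WT mice (FDR 0.0440) and -0.24 in TSP-1 null mice (FDR 0.0641), neither past the threshold. Under median of ratios scaling the WT value turned to -0.30 and Etnk2 was called lower in TSP-1 null mice, at -0.78 (FDR 1.7e-05).

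The window of Etnk2 is shown as that of the gene called between genotypes, chr1:133363322-133363571 on the plus strand of GRCm38, immediately before the gene at chr1:133363572-133380336, with the same 6 motifs in capitals.
Etnk2: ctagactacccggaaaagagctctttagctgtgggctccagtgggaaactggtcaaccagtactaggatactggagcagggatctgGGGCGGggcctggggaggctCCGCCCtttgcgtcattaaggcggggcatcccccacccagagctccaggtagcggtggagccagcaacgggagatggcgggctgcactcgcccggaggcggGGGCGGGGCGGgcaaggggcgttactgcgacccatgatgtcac
It is 65.2% GC and holds 4 matches to GGGCGG, 2 of which overlap, and none to the other motifs.

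Etnk1, the other ethanolamine kinase, was lower on average in TSP-1 null than in WT mice on control diet, where Etnk2 was higher. It read 15.4, 12.1, 17.5, 14.7 and 16.5 FPKM in NDWT and 9.89, 12.4, 10.4, 10.5 and 12.6 FPKM in NDKO, and ranged from 12.0 to 14.7 FPKM in HFWT and from 13.1 to 14.7 FPKM in HFKO. NDKO was 0.737 of NDWT (log2FC -0.44, SE 0.092, FDR 0.00413), below the fold threshold and with overlap. By diet the log2FC was -0.16 in WT mice (FDR 0.126) and 0.33 in TSP-1 null mice (FDR 0.00311), where HFKO lay above NDKO without overlap. With median of ratios scaling Etnk1 was called lower in WT mice, at -0.72 (FDR 2.67e-06), and the value in TSP-1 null mice turned to -0.20. The diet effects differed by 0.49 (95% interval 0.22 to 0.77, FDR 0.0715).

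The Etnk1 to Etnk2 ratio sets both kinases side by side within a library. Its median was 0.321 (0.269 to 0.408) in NDWT, 0.148 (0.0846 to 0.162) in NDKO, 0.252 (0.207 to 0.311) in HFWT and 0.197 (0.171 to 0.220) in HFKO. On control diet the ratio in NDKO was 0.396 of that in NDWT (exact permutation p = 0.00794, adjusted 0.0265), and on CDAHFD the ratio in HFKO was 0.794 of that in HFWT (p = 0.0238, adjusted 0.0433, exact permutation). CDAHFD went with a lower ratio in WT, 0.745 of control (exact permutation p = 0.0238, adjusted 0.0433), and with a higher one in TSP-1 null mice, 1.49-fold (exact permutation p = 0.00794, adjusted 0.0265). The diet effect on the log2 ratio differed between genotypes by 1.00 (exact permutation p = 0.000157 over 63504 arrangements of the diet labels within genotypes, 0.000787 after adjustment over 5 ratios). The test was run only once the values were known, and its null is no diet effect in either genotype, so its p is not exact for the difference alone. Ethanolamine kinase transcripts summed to 61.4 ± 7.34 FPKM in NDWT, 97.9 ± 17.4 in NDKO, 68.9 ± 5.08 in HFWT and 86.2 ± 3.42 for HFKO.

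Pcyt2 encodes the enzyme that activates phosphoethanolamine to CDP-ethanolamine, the controlling step of the parallel route to PE. It ranged from 98.9 to 138 FPKM in NDWT, 110 to 139 in NDKO, 80.3 to 116 in HFWT and 100 to 150 for HFKO, and all comparisons overlapped. Its log2FC by diet was -0.22 in WT mice (95% interval -0.48 to 0.03, FDR 0.104) and -0.15 in TSP-1 null mice (95% interval -0.40 to 0.10, FDR 0.279). Under median of ratios scaling Pcyt2 was called lower in both, at -0.78 and -0.68. With quantile normalization it was called in neither, at -0.19 (FDR 0.166) and -0.10 (FDR 0.456). Set against the enzyme of the same step in the choline route, the Pcyt2 to Pcyt1a ratio was 0.657 of control on CDAHFD in TSP-1 null mice (exact permutation p = 0.0159, adjusted 0.0433), with a median of 9.51 in NDKO and 5.80 in HFKO. In WT it was 0.771 of control, which did not pass (exact permutation p = 0.0714, adjusted 0.110). The diet effects on this ratio were not shown to differ between genotypes (exact permutation p = 0.487, adjusted 0.721).

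Pemt, the hepatocyte methyltransferase that turns PE into PC, ranged from 95.5 to 121 FPKM in NDWT, 107 to 125 in NDKO, 115 to 154 in HFWT and 120 to 189 for HFKO. It was 1.28-fold higher on CDAHFD in WT mice (log2FC 0.35, 95% interval 0.13 to 0.57, FDR 0.00547) and 1.27-fold higher in TSP-1 null mice (log2FC 0.35, FDR 0.00610), under the fold threshold and with overlap. Relative to all genes the values were -0.18 and -0.15, and they turned to -0.21 and -0.19 with median of ratios scaling. With quantile normalization the log2FC stayed positive, at 0.405 in WT mice (FDR 0.00131) and 0.401 in TSP-1 null mice (FDR 0.00154). The all-gene medians were then -0.066 and -0.059, so the sign for Pemt depended on the scaling. The diet effects of both genotypes were not shown to differ, with an interaction log2FC of -0.004 (95% interval -0.32 to 0.31). The genotypes differed by 0.089 on control diet and 0.085 on CDAHFD, with FDR 0.637 and 0.703. The Pemt to Pcyt1a ratio sets the methylation route beside the choline route. It had a median of 5.63 in NDWT and 8.09 in NDKO, 1.35-fold higher on the mean log2 scale (exact permutation p = 0.0238, adjusted 0.0433), and did not pass by diet in WT (exact permutation p = 0.214) or in TSP-1 null mice (exact permutation p = 0.492).

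Within groups, Pemt and Pcyt2 varied together from mouse to mouse. After removal of group means their log2 values had Pearson's r = 0.826 and Spearman's rho = 0.821 over 20 libraries, and r = 0.789 without the 2 libraries farthest from the median of Pemt. The HFKO 4 library was highest for both, at 189 FPKM for Pemt and 150 FPKM for Pcyt2. Of the 14523 other tested genes, Gchfr, the feedback regulator of GTP cyclohydrolase, was most like Pemt by this measure (r = 0.954), followed by Lcat, the plasma enzyme that esterifies cholesterol with a fatty acid from PC (r = 0.884), and Slc46a1, a folate transporter (r = 0.867). These are descriptions over 20 libraries that share their scaling, and the genes were picked for the size of r.

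Lpcat3, which reacylates lysophosphatidylcholine and places polyunsaturated fatty acids in PC, was called in no comparison. It ranged from 37.2 to 48.0 FPKM in NDWT, 34.3 to 44.8 in NDKO, 32.9 to 39.9 in HFWT and 34.7 to 47.2 for HFKO. Its log2FC by diet was -0.18 in WT mice (95% interval -0.37 to 0.02) and -0.004 in TSP-1 null mice (95% interval -0.20 to 0.19), or -0.71 and -0.50 relative to all genes. With median of ratios scaling it was called lower in WT, at -0.74.

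**Figure D3:**
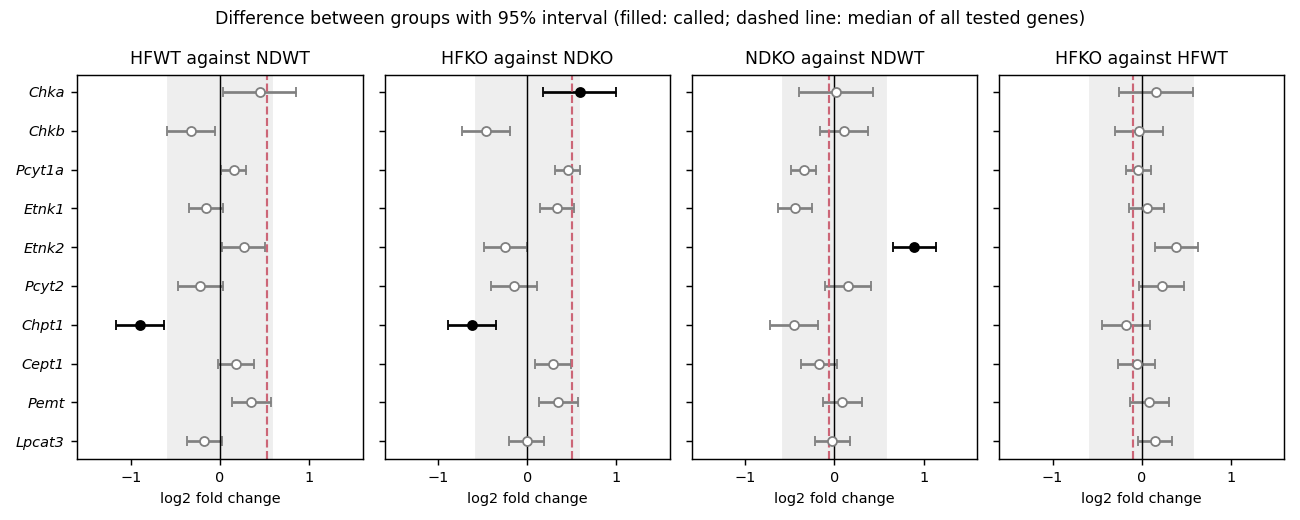
Points show the log2FC of each of the 10 genes in 4 comparisons with 95% intervals (x axis), filled where called, with the range between the fold thresholds in grey and the median of all tested genes as a dashed line. Chpt1 lay below -0.58 in both diet comparisons and Etnk2 above 0.58 in NDKO against NDWT, while Chka was just past 0.58 in HFKO against NDKO.

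Counted over the 10 genes, HFWT against NDWT called 0 higher and 1 lower, where 44.1% of all tested genes were called higher and 4.62% lower. HFKO against NDKO called 1 higher and 1 lower, against 41.9% and 4.00% of all genes. By FDR alone 4 were higher and 2 lower in WT mice (64.4% and 8.73% of all genes) and 5 higher and 2 lower in TSP-1 null mice (64.0% and 7.69%). The groups did not overlap for 1 of 10 genes in WT mice and 3 of 10 in TSP-1 null mice, against 56.2% and 57.8% of all genes. The median log2FC of the 10 genes was -0.004 and 0.14, beside 0.53 and 0.50 over all tested genes. Under median of ratios scaling 0 were higher and 5 lower in WT mice (22.7% and 15.4% of all genes), and 0 higher and 4 lower in TSP-1 null mice (22.2% and 13.6%). In WT these were Chpt1, Chkb, Pcyt2, Lpcat3 and Etnk1, and in TSP-1 null mice Chpt1, Chkb, Etnk2 and Pcyt2. The lower calls for Chpt1 were thus the ones present on both scales. With quantile normalization the lower calls were of Chpt1 and Chkb in each genotype. Pcyt2, Lpcat3, Etnk1 and Etnk2 were then not called by diet.

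Between genotypes, NDKO against NDWT called 1 higher and 0 lower, against 1.74% and 3.03% of all genes, with 4 of 10 at an unadjusted p under 0.05. By FDR alone 1 was higher and 3 lower (3.47% and 9.60% of all genes). HFKO against HFWT called 0 in either direction (0.165% higher and 0.330% lower over all genes), with 1 of 10 at an unadjusted p under 0.05. The interaction called 0 (0.337% and 0.310%), with 3 of 10 at an unadjusted p under 0.05, namely Etnk1, Etnk2 and Pcyt1a. Groups did not overlap for 1 of 10 genes on either diet, Etnk2, against 9.03% and 4.98% of all genes. In HFWT against NDWT 6 of 10 had an unadjusted p under 0.05 in limma. These were the 4 higher and 2 lower by FDR alone, where 64.4% and 8.73% of all genes passed. The share of all genes at an unadjusted p under 0.05 was not counted. Counts at that p, here and below, are therefore not set against a background and show no excess by themselves. The diet and genotype comparisons share groups, so their values stand side by side and are not independent.

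Markers of other cell types moved with diet. Summed macrophage markers (10 of 10 detected) were 141 to 245 FPKM over the control libraries and 705 to 1538 over the CDAHFD libraries, and stellate cell and myofibroblast markers were 15.5 to 21.2 against 134 to 312. Cholangiocyte markers were 18.6 to 24.6 against 194 to 506, and lymphocyte markers 1.83 to 6.89 against 8.28 to 18.2. Endothelial markers overlapped, at 63.9 to 85.9 against 73.5 to 116 FPKM, as did hepatocyte markers, at 41673 to 53768 against 30488 to 50286 FPKM. Stellate cell and myofibroblast markers rose for 10 of 10 in each genotype, macrophage markers for 7 of 10 (with 1 that fell), cholangiocyte markers for 7 of 7 tested and lymphocyte markers for 8 of 9, while 1 of 8 endothelial markers rose in WT mice and 3 in TSP-1 null mice, beside 44.1% and 41.9% of all genes. Of these rises, 1 stellate cell, 2 macrophage, 3 cholangiocyte and 4 lymphocyte markers were over 0.5 FPKM in fewer than 5 control libraries and so could be tested only because the CDAHFD libraries were high. Of the 10 hepatocyte markers 4 fell in WT mice and 5 in TSP-1 null mice, beside 4.62% and 4.00% of all genes. With median of ratios scaling 10 of 10 hepatocyte markers fell in WT mice and 8 in TSP-1 null mice (15.4% and 13.6% of all genes), and stellate cell and myofibroblast markers rose for 9 and 8 of 10, macrophage markers for 7 and 7 of 10, cholangiocyte markers for 6 and 6 of 7 and lymphocyte markers for 7 and 3 of 9 (22.7% and 22.2% of all genes). On that scale 0 endothelial markers rose and 3 fell in WT mice, and 1 rose and 0 fell in TSP-1 null mice. The falls of hepatocyte markers depended on scaling. With quantile normalization no hepatocyte marker was called by diet in WT mice, and Tat alone in TSP-1 null mice, at -0.82 (FDR 0.00935). No marker was at 0 in all libraries of a group. In bulk tissue fewer cells of a type and less RNA per cell cannot be told apart, and the part of these shifts in the diet differences above was not tested. On control diet 2 of 10 hepatocyte markers rose in NDKO, beside 1.74% of all genes. The hepatocyte markers summed to 41673 to 48223 FPKM in NDWT and 46523 to 53768 in NDKO, with overlap. Their part in the Etnk2 difference was not tested.

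The other genes that supply, use or move PC and PE were taken from 6 lists of 80 genes, of which 75 were tested. The lists were written with earlier results of these data known. HFWT against NDWT called 26 higher and 12 lower, beside 44.1% and 4.62% of all genes, and HFKO against NDKO called 29 higher and 13 lower, beside 41.9% and 4.00%. The higher calls thus lay under the share of all genes. Of these rises 9 in each genotype were of genes over 0.5 FPKM in fewer than 5 control libraries, which passed the filter on low values only through the CDAHFD libraries and had to be higher there. Slc44a4, Flvcr1, Lpcat4, Mboat1, Gdpd1 and Pla2g4a, named below, are among them, and their changes are descriptions. NDKO against NDWT called 8 higher and 4 lower (1.74% and 3.03% of all genes). HFKO against HFWT called 1 higher and 0 lower (0.165% and 0.330%), and the interaction 0 (0.337% and 0.310%). In the last 2 of these, 19 and 20 of the 75 had an unadjusted p under 0.05 in limma. Those counts stand without a share over all genes. Under median of ratios scaling the interaction called 2 of the listed genes higher and 0 lower (0.565% and 0.392% of all genes), Mttp and Pnpla7, a lysophospholipase, at 0.60 (FDR 0.00757) and 0.59 (FDR 0.0162). Pnpla7 is named here for that call, with its values known.

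Tested transporters that take up choline, ethanolamine or related compounds numbered 9. In WT mice 6 rose and 0 fell, and in TSP-1 null mice 5 rose and 2 fell. Over all genes 44.1% and 41.9% were called higher and 4.62% and 4.00% lower. In each genotype 2 of the rises were of transporters tested only through the CDAHFD libraries. The median log2FC was 0.87 and 0.80, beside 0.53 and 0.50 over all genes. Slc44a2, a choline transporter-like protein, went from 3.09 ± 0.183 FPKM in NDWT to 12.1 ± 1.58 in HFWT (log2FC 1.93, FDR 2.54e-11). In TSP-1 null mice its log2FC was 1.73. Slc44a4, of the same family, was at 0.0744 FPKM in NDWT and 1.33 FPKM in HFWT, and Flvcr1, listed as Mfsd7b and known to carry choline and ethanolamine, at 0.524 and 2.43 FPKM. Both entered the tests only through the CDAHFD libraries. Slc6a12, the betaine transporter, fell in TSP-1 null mice from 35.6 ± 4.74 to 21.6 ± 1.74 FPKM (FDR 9.48e-07), as did Slc22a3, an organic cation transporter, from 2.80 to 1.48 FPKM (FDR 0.00143). On control diet the TSP-1 null mice had less Slc44a3 (log2FC -0.66, FDR 0.0249) and more Flvcr2, listed as Mfsd7c (0.62, FDR 0.0202). With median of ratios scaling 4 rose and 2 fell in each genotype, beside 22.7% and 22.2% of all genes called higher and 15.4% and 13.6% lower.

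Of 13 tested genes of oxidation of choline and of methyl supply, 0 rose and 6 fell in WT mice. In TSP-1 null mice 2 rose and 8 fell. Over all genes 44.1% and 41.9% were called higher and 4.62% and 4.00% lower. The median log2FC of the 13 was -0.50 and -0.72. With median of ratios scaling 0 rose and 10 and 9 fell. On that scale 22.7% and 22.2% of all genes were called higher and 15.4% and 13.6% lower. Mat1a, which makes the S-adenosylmethionine that PEMT uses, went from 1877 ± 379 FPKM in NDWT to 798 ± 156 in HFWT (FDR 5.05e-07) and from 3158 ± 362 in NDKO to 968 ± 104 in HFKO (FDR 7.58e-09). Ahcy, which clears the S-adenosylhomocysteine left by methylation, fell with log2FC -1.13 and -1.56, and Gnmt, the glycine N-methyltransferase, with -0.81 and -1.38. Mat2a, the form of the synthetase found outside mature liver, rose in TSP-1 null mice from 26.8 ± 2.62 to 48.0 ± 1.01 FPKM (FDR 2.48e-08), and Gamt, which methylates guanidinoacetate to creatine, was at 0.59 (FDR 0.000456), but neither was called with median of ratios scaling, at 0.31 and 0.055. On control diet 4 of the 13 rose in NDKO against NDWT and 0 fell, beside 1.74% and 3.03% of all genes. They were Mat1a (log2FC 0.77), Ahcy (0.64), Gnmt (0.70) and Nnmt, which methylates nicotinamide (1.68). Their FDR ran from 0.000206 to 0.00273. None of the 13 was called between genotypes on CDAHFD or in the interaction, where 6 and 7 had an unadjusted p under 0.05 in limma.

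Among 12 tested genes of other synthesis steps, 5 rose and 1 fell in each genotype on CDAHFD. The rises were near the 44.1% and 41.9% of all genes called higher, and 4.62% and 4.00% of all genes were called lower. Of the 5, 1 was tested only through the CDAHFD libraries. Under median of ratios scaling 2 rose in each while 4 fell in WT mice and 2 in TSP-1 null mice. Over all genes 22.7% and 22.2% were called higher on that scale and 15.4% and 13.6% lower. Pisd, which decarboxylates phosphatidylserine to PE in mitochondria, was at log2FC 0.69 in WT mice and 0.93 in TSP-1 null mice, Cds2, a CDP-diacylglycerol synthase, at 0.50 and 0.58, and Lpin3, a phosphatidate phosphatase, at 1.58 and 1.23. Of these, Lpin3 was called with median of ratios scaling and Pisd and Cds2 were not. Etnppl, which breaks down phosphoethanolamine, the product of Etnk1 and Etnk2, fell from 29.8 ± 15.2 to 12.5 ± 2.65 FPKM in WT mice (FDR 0.000692) and from 69.2 ± 22.7 to 18.1 ± 4.46 in TSP-1 null mice (FDR 3.51e-06). Etnppl also rose in NDKO against NDWT (log2FC 1.26, FDR 0.00443), the direction that Etnk2 took. Lpin1, another phosphatidate phosphatase, was the 1 listed gene called between genotypes on both diets, at 3.32 ± 0.900 FPKM in NDWT, 8.64 ± 3.40 in NDKO, 6.36 ± 0.764 in HFWT and 12.0 ± 0.785 for HFKO (FDR 0.000719 and 0.0401). Selenoi, listed as Ept1 and encoding the ethanolamine phosphotransferase of the last step of PE synthesis, fell in NDKO from 7.91 ± 0.615 to 5.32 ± 1.09 FPKM (log2FC -0.58, FDR 0.0136), close to the threshold and not past it with median of ratios scaling (-0.51).

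Of 9 other lysophospholipid acyltransferases tested, 5 rose in each genotype on CDAHFD, beside 44.1% and 41.9% of all genes. In WT mice 1 fell and in TSP-1 null mice 0, beside 4.62% and 4.00% of all genes. With median of ratios scaling 4 rose in each, and 2 and 1 fell, beside 22.7% and 22.2% of all genes called higher and 15.4% and 13.6% lower. Lpcat1 went from 1.25 ± 0.129 to 3.86 ± 0.692 FPKM in WT (FDR 8.10e-08). Lpcat4, at 0.357 FPKM in NDWT and 2.52 FPKM in HFWT, and Mboat1, at 0.063 and 0.939 FPKM, are 2 of the 5 and entered the tests only through the CDAHFD libraries. All 3 stood far below Lpcat3 in level per length. Lpgat1, another lysophospholipid acyltransferase, fell in WT from 46.9 ± 7.74 to 28.1 ± 4.79 FPKM (FDR 4.09e-05). Between genotypes limma called 0 of the 9 on either diet, with 2 at an unadjusted p under 0.05 on each.

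Of 21 genes of PC use and breakdown, 9 rose and 2 fell in WT mice. In TSP-1 null mice 10 rose and 1 fell. The rises were about the 44.1% and 41.9% of all genes called higher, and 4.62% and 4.00% of all genes were called lower. In each genotype 4 of the rises were of genes tested only through the CDAHFD libraries. Under median of ratios scaling 6 rose and 7 fell in WT mice, beside 22.7% and 15.4% of all genes. In TSP-1 null mice 6 rose and 3 fell on that scale, beside 22.2% and 13.6%. The phospholipases D Pld1 and Pld2, which release choline from PC, rose with log2FC 1.404 and 1.297 in WT mice and 1.32 and 1.26 in TSP-1 null mice, while Gdpd1, a glycerophosphodiesterase and 1 of those 4, was at 2.23 and 1.66. Lcat fell in WT from 355 ± 23.6 to 206 ± 25.3 FPKM (FDR 4.69e-07). Gpcpd1, which splits glycerophosphocholine, fell in both genotypes (log2FC -0.60 and -1.63) and rose in NDKO against NDWT (0.76, FDR 0.0409). The phospholipases A2 Pla2g6 and Pla2g4a fell in NDKO (-0.73 and -0.70). Pla2g4a was low on control diet, with means of 0.435 FPKM in NDWT and 0.224 FPKM in NDKO. It entered the tests only through the CDAHFD libraries.

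Among 11 genes of PC transfer and export, 1 rose and 2 fell in WT mice and 2 rose and 1 fell in TSP-1 null mice. Over all genes 44.1% and 41.9% were called higher and 4.62% and 4.00% lower. With median of ratios scaling 0 rose and 6 and 3 fell, beside 22.7% and 22.2% of all genes called higher and 15.4% and 13.6% lower. Mttp, which loads lipid onto apolipoprotein B in VLDL assembly, went from 115 ± 5.56 to 50.6 ± 1.59 FPKM in WT mice (FDR 3.14e-12) and from 85.2 ± 7.82 to 56.0 ± 1.90 in TSP-1 null mice (FDR 2.83e-08). Its diet effect differed between genotypes by 0.577 (FDR 0.00551), just under the fold threshold, and was called with median of ratios scaling, at 0.60. Pctp, the PC transfer protein, fell in WT from 95.5 ± 7.26 to 60.8 ± 7.42 FPKM. Pitpna, a phosphatidylinositol transfer protein that also carries PC, rose in both genotypes (log2FC 1.07 and 1.02), and Pltp, the plasma phospholipid transfer protein, was at 0.59 in TSP-1 null mice, but neither was called with median of ratios scaling (0.51 and 0.49 for Pitpna, 0.061 for Pltp).

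**Figure D4:**
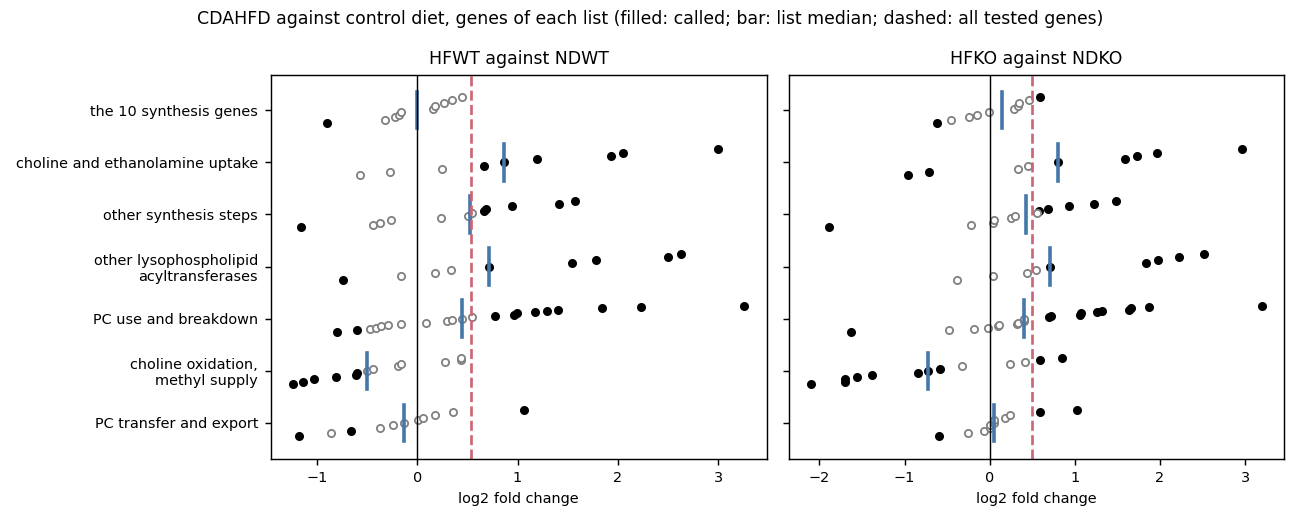
Each point is the log2FC (x axis) of 1 tested gene of a list in the diet comparison of WT (left) or TSP-1 null mice (right), filled where called, with the list median as a bar and the median of all tested genes as a dashed line. The median of the 10 synthesis genes was -0.004 and 0.14, with Chpt1 lowest among them at -0.90 and -0.62, and the oxidation and methyl supply genes had the lowest median of the lists shown, at -0.50 and -0.72.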

How the data were processed

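RNA from 20 mouse livers was enriched for poly(A), made into libraries with a directional kit and sequenced in pairs. The series text names the right medial lobe and the methods the right lateral lobe. The submitters' processing notes name STAR 2.5.2, featureCounts and Subread 1.5.1, and the genome build GRCh38, whereas coordinates in the deposited table are mouse GRCm38. The strand setting of counting was not given in the sources used here, so genes that overlap on either strand, here Cept1, Lpcat3 and Chkb, may share reads. The authors deposited FPKM for 38924 genes with no scaling between libraries. Fragments were recovered from FPKM, gene length and library size (15641545 to 23276321 per library).

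The members and lists were chosen with earlier results of these data known. Groups followed the labels. The log2(FPKM + 0.1) values, on which fold changes of low genes are understated, of 14524 genes (FPKM over 0.5 in 5 or more libraries) entered limma 3.58.1 under R 4.3.3, with a trended eBayes and 1 mean per group over all 20 libraries. The thresholds follow the study, FDR under 0.05 and absolute log2FC above 0.58, two-sided. The counts by diet differ from those of the paper, which reports a less uneven split between higher and lower genes. Here the split was 6412 higher and 671 lower in WT mice, and 6088 and 581 in TSP-1 null mice. With median of ratios scaling it was 3299 and 2242 in WT mice, and 3225 and 1981 in TSP-1 null mice. The interaction subtracts the genotype difference on control diet from that on CDAHFD. Ratios of 5 pairs were tested by two-sided exact permutation over 252 arrangements, adjusted over 20 tests. The fit was tested on simulated data. All 10 members are named, with, per list, up to 3 called genes in each direction of lowest FDR by diet and those called by genotype, plus Thbs1, mt-Tg and mt-Tr, and the 3 genes most like Pemt. The genes Flvcr1, Flvcr2, Selenoi and Adgre1 were matched by identifier to older symbols. Promoter windows are RefSeq, GRCm38.p6. GENCODE M21 served for gene overlaps. Pcyt2 had no window in the table. Alternatives were other pseudocounts, filters, scalings, variance models, samples in the fit, a replicate block, no fold threshold, and leaving out each library. Python 3.11.15, pandas 2.3.3, numpy 2.4.6, scipy 1.17.1 and matplotlib 3.10.9 were used.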

Additional observations from a re-analysis of the deposited data

Results flagged for a closer look

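The log2 ratio of Etnk1 to Etnk2 responded to CDAHFD in opposite directions in the genotypes, with a difference of means of -0.43 in WT mice and 0.58 in TSP-1 null mice. The effect in TSP-1 null less that in WT was 1.004 (two-sided exact permutation of diet labels within each genotype, p = 0.000157, 0.000787 after adjustment over 5 ratios), and it is listed here for that p. The test was added after the values were seen. Its null is no diet effect in either genotype, and both diet effects on this ratio had passed on their own, so the p is not exact for the difference. The difference ranged from 0.85 to 1.09 when each library was left out in turn. For the single genes the interaction did not pass the FDR, at 0.0715 for Etnk1 and 0.136 for Etnk2. The other 4 ratios did not pass this test, with adjusted p of 0.362 to 0.728. No library stood apart from its group in the 40 combinations of gene and group that were checked with Dixon's test.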

How the results depend on the processing

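The fall of Chpt1 by diet in WT and the rise of Etnk2 in NDKO were called in 31 of 31 settings, the fall of Chpt1 in TSP-1 null mice in 30 of 31 and the rise of Chka in 24 of 31. Calls depended on scaling and on the fold threshold. Where 0 members were higher and 1 lower in WT, median of ratios scaling gave 5 lower, quantile normalization 2 lower, and no fold threshold 4 higher and 2 lower. Where 1 was higher and 1 lower in TSP-1 null mice, median of ratios gave 0 higher and 4 lower, quantile normalization 0 and 2, no fold threshold 5 and 2, and a pseudocount of 1 gave 0 higher. No fold threshold gave 3 lower in NDKO against NDWT. Median of ratios turned the log2FC by diet in WT to -0.21 for Pemt, -0.107 for Chka, -0.406 for Pcyt1a, -0.381 for Cept1 and -0.295 for Etnk2, and in TSP-1 null mice to -0.188 for Pemt, -0.076 for Pcyt1a, -0.243 for Cept1 and -0.196 for Etnk1. Quantile normalization turned Chka to -0.154, Pcyt1a to -0.184 and Cept1 to -0.167 in WT, and Cept1 to -0.078 and Etnk1 to -0.076 in TSP-1 null mice. Between genotypes, median of ratios and quantile normalization turned Lpcat3 on control diet to 0.052 and 0.042, and on CDAHFD Chkb to 0.069 and 0.041 and Pcyt1a to 0.061 and 0.013. Median of ratios turned Cept1 on CDAHFD to 0.043 and the Pemt interaction to 0.022.

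Leaving out each library in turn gave 0 to 1 members higher by diet in WT, 0 to 1 higher and 0 to 1 lower in TSP-1 null mice, and log2FC of -0.065 to 0.046 for Lpcat3 by diet in TSP-1 null mice. In NDKO against NDWT it gave -0.113 to 0.15 for Chka, -0.007 to 0.189 for Chkb and -0.064 to 0.037 for Lpcat3, and in HFKO against HFWT -0.006 to 0.157 for Pemt and -0.086 to 0.012 for Chkb. The interaction ranged from -0.095 to 0.067 for Pemt, from -0.001 to 0.274 for Chka and from -0.023 to 0.135 for Pcyt2. The ratios that passed numbered 0 to 4 by diet in TSP-1 null mice, 0 to 3 in NDKO against NDWT and 0 to 1 in HFKO against HFWT, where 5 against 4 libraries cannot give an exact p below 0.0159 and a lost call says nothing about stability. In the single-gene tests 1461 alternatives kept sign and side of the threshold, 48 turned the sign, 23 gained a call and 8 lost one.

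The replicate numbers showed no strong pairing of the mice. The deviations of same-numbered libraries correlated at -0.133 to 0.081 over 30 pairs. A library correlated best with its own number in 17 of 60 cases, each a choice among 5 libraries. A weak pairing could be missed by this check. A replicate block gave 1 member lower by diet in WT and 1 higher in NDKO against NDWT, as without it, and 7097 calls over all genes against 7083 in the first and 677 against 693 in the second.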
